A study of Mus musculus with 22 samples.

Results

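Antigen presentation and the interferon response were followed through 35 genes, listed by symbol, in the hypothalamus of male ob/ob mice of 11 weeks that had received the growth factor FGF1 (3 µg) or its vehicle once by the icv route, into a brain ventricle. All 35 were among the 16304 genes of the whole-cell counts, and 34 were among the 20668 genes of the nuclear counts, which lacked Igtp. Single-nucleus RNA-seq covered 3 FGF1 and 3 vehicle mice 1 day after injection and 2 and 2 mice on Day 5, and single-cell RNA-seq of whole cells covered a separate cohort of 6 and 6 mice on Day 5, held on another chow. By the authors' account, the whole-cell cohort was of another supplier's ob/ob stock (Janvier Labs) than the mice for nuclei (Jackson Laboratories). Vehicle mice received PBS and were pair-fed to the FGF1 mice, and mice of all groups lacked leptin. Each mouse gave 1 library and was 1 replicate, with 2721087 to 16345981 unique molecular identifiers (UMIs, counted molecules) per nuclear library and 2652897 to 11866269 per cell library.

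Cells show fragments of their own proteins on class I molecules, which pair a heavy chain (H2-D1, H2-K1 and the non-classical H2-T22, H2-T23 and H2-Q4) with beta-2-microglobulin (B2m). The peptides are cut by the immunoproteasome (Psmb8, Psmb9, Psmb10), pumped into the endoplasmic reticulum by Tap1 and Tap2, and loaded with the help of tapasin (Tapbp). Class II molecules (H2-Aa, H2-Ab1, H2-Eb1), whose invariant chain is Cd74, are carried mainly by professional antigen-presenting cells, which in brain are mostly macrophages of its borders. Interferons act through Stat2 and Irf9 and through Irf1 and Irf7 on genes that hold the interferon-stimulated response element (ISRE). Their targets include effectors such as Isg15, the Ifit, Ifitm, Oasl2, Bst2, Rtp4, Xaf1 and Ifi27 genes, and the GTPases Gbp2, Gbp3, Iigp1 and Igtp.

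Many of these genes are neighbours. In the GENCODE annotation of GRCm38, 13 of the 35 lie on chromosome 17 between 33915899 and 36042747, the region of the major histocompatibility complex, and 3 Ifit genes lie together on chromosome 19. Psmb9 (chr17:34181987-34187764) and Tap1 (chr17:34187553-34197225) overlap on opposite strands. The H2 class I, Ifit, Ifitm and Gbp genes have close relatives whose reads can be split between copies, so their values are less certain gene by gene.

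RefSeq promoters (250 bases before to 50 after the start, GRCm38.p6) were found for 29 of the 35 genes. H2-Ab1, Cd74, Tap2, Ifi27, Iigp1 and Rtp4 had none in that table. On either strand, the ISRE core GAAANNGAAA was in 13 of the 29 (44.8%) and in 3.49% of all 27025 promoters, counting overlapping matches once per promoter. The GAS motif TTCNNNGAA, which reads the same on both strands and is bound by Stat dimers, was in 6 (20.7%) against 8.47%. The Y box CTGATTGG of class II promoters was in 7 (24.1%) against 4.31%. By role, the ISRE core was in 6 of 9 effectors, 3 of 3 GTPases, 3 of 6 class I genes and 1 of 4 transcription factors, and the Y box was in both class II genes with a promoter. The stretches below, 5′ to 3′ on the strand of the gene, are shown for the genes with the ISRE core upstream of the start that were called in Day 5 whole cells with batch as a block, with Isg15 as a case of overlapping matches. The capitals mark the ISRE core or its reverse complement.
B2m (chr2:122147503-122147602, plus strand): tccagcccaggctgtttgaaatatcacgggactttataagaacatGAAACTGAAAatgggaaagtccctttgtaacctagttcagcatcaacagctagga
Bst2 (chr8:71537542-71537647, minus strand): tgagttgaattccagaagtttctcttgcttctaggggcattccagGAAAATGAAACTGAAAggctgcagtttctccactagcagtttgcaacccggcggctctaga
Gbp2 (chr3:142620559-142620658, plus strand): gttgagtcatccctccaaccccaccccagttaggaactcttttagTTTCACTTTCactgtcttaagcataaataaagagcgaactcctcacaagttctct
Igtp (chr11:58199477-58199555, plus strand): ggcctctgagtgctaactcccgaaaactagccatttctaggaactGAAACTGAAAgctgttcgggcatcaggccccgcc
Isg15 (chr4:156200830-156200941, minus strand): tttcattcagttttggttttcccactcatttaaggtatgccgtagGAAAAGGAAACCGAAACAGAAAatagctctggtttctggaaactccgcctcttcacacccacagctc

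Promoters with the Y box are shown for the class II genes H2-Aa and H2-Eb1 and for the class I gene H2-D1, with the box, or its reverse complement in H2-D1, in capitals.
H2-Aa (chr17:34287824-34287919, minus strand): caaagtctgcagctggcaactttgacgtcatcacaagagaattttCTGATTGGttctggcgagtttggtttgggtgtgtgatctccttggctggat
H2-Eb1 (chr17:34305760-34305857, plus strand): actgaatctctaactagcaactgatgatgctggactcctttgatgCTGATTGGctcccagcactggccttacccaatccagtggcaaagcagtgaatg
H2-D1 (chr17:35262996-35263093, plus strand): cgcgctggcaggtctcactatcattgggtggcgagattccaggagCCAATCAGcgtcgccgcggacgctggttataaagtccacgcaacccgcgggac

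The UMIs of each gene were added up for every mouse within a cell type, and a level is given in CPM, the UMI count scaled to the size of its library with TMM factors. Because a sum per type was used, a higher level can come from more cells that express a gene or from more RNA per cell, and these cannot be told apart in it. Clusters of whole cells are numbered in the data and were named from markers (tanycytes 0, 7 and 10, astrocytes 1 and 4, oligodendrocytes 2, 11 and 12, oligodendrocyte precursors (OPC) 5, committed precursors (COP) 9, ependymal cells 6, endothelial cells 3, pericytes 15, vascular and leptomeningeal cells (VLMC) 13, microglia 8, macrophages 16). The nuclear labels Astro, Tany, Epend, Olig, COP, Micro and VLMC each had the highest sum of their own markers of all labels. Olig, COP and Micro nuclei also held neuron markers at 15090, 12516 and 15527 CPM in sum, against 3380 to 5672 in Astro, Tany, Epend and VLMC. Their own markers summed to 1025, 1235 and 553 CPM in Olig, COP and Micro. In Astro, Tany, Epend and VLMC they summed to 5893, 1180, 1915 and 1541 CPM, above the neuron markers in Astro only.

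In whole cells of both groups together, the class II genes, B2m, H2-D1 and H2-K1 were highest in macrophages or microglia, whereas Ifitm3 was highest in VLMC and Ifi27 in tanycytes. The class II genes stood furthest from the next cluster. Cd74 stood at 4645 ± 3134 CPM (SD, n = 9 mice) in macrophages, and its next highest cluster was microglia at 341 ± 816 (n = 12). H2-Aa, H2-Eb1 and H2-Ab1 stood at 2353, 1938 and 1702 CPM in macrophages and at 124 or less in every other cluster. These 4 genes are among those that define the macrophage cluster, so this is a description of it. With the cells of all mice pooled, a UMI of Cd74 was found in 67.4% of 175 FGF1 and 37.0% of 154 vehicle macrophages. Their median depth was 1330 and 1265 UMIs. The share was 1.89% and 1.25% in oligodendrocytes of cluster 2 (1273 and 1308 UMIs), which should lack it. Single mice gave 0 to 58 FGF1 and 5 to 47 vehicle macrophages, so the pooled shares are no comparison of the groups. The test per mouse is given further on.

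B2m was highest in microglia (2704 ± 1425 CPM, n = 12), then in macrophages (2406 ± 1305, n = 9) and VLMC (1450), and the first 2 overlapped widely. H2-D1 (822 ± 377) was highest in macrophages, then in microglia (648), and H2-K1 (774 ± 554) in macrophages, then in ependymal cells (680 ± 1044) and microglia (679). The immunoproteasome subunits Psmb8 (280 ± 265) and Psmb9 (145 ± 92.6) and the loading factor Tapbp (188 ± 147) were also highest in macrophages, at spreads that overlapped the next clusters, as was the peptide pump Tap1 (92.3). The other loading genes and the non-classical class I genes peaked elsewhere. Psmb10 was highest in pericytes (118 ± 89.9, n = 12) and near that in tanycytes of cluster 10 (116), and Tap2 in pericytes (94.4 ± 98.1). H2-T22 (158) and H2-Q4 (79.9) were highest in VLMC and H2-T23 (72.8) in ependymal cells. Among the transcription factors, Irf7 was highest in macrophages (94.1 ± 107), Irf1 in VLMC (362 ± 373) and Irf9 in tanycytes of cluster 10 (59.9 ± 13.4).

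The effectors peaked in several types. Ifitm3, which blocks virus entry at membranes, was highest in VLMC (1814 ± 737 CPM, n = 9), ependymal cells (1343 ± 1281, n = 12) and pericytes (1332), and these neighbours did not differ beyond their spread. Ifitm2 followed it in VLMC (1052 ± 346). Ifi27, a small mitochondrial protein induced by interferon, was highest in tanycytes of clusters 10 (964 ± 195) and 7 (687 ± 198), then in COP (536). Bst2 (504 ± 346) and Oasl2 (86.7 ± 69.5) were highest in macrophages and Xaf1 (131 ± 52.3, n = 10) in oligodendrocytes of cluster 12. The GTPases Gbp2 (166 ± 230) and Igtp (82.7 ± 137) were highest in ependymal cells and Iigp1 (90.5 ± 188) in pericytes, each with an SD above its mean. The mice of 1 batch, described next, lie at the top of many of these ranges.

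**Figure D1:**
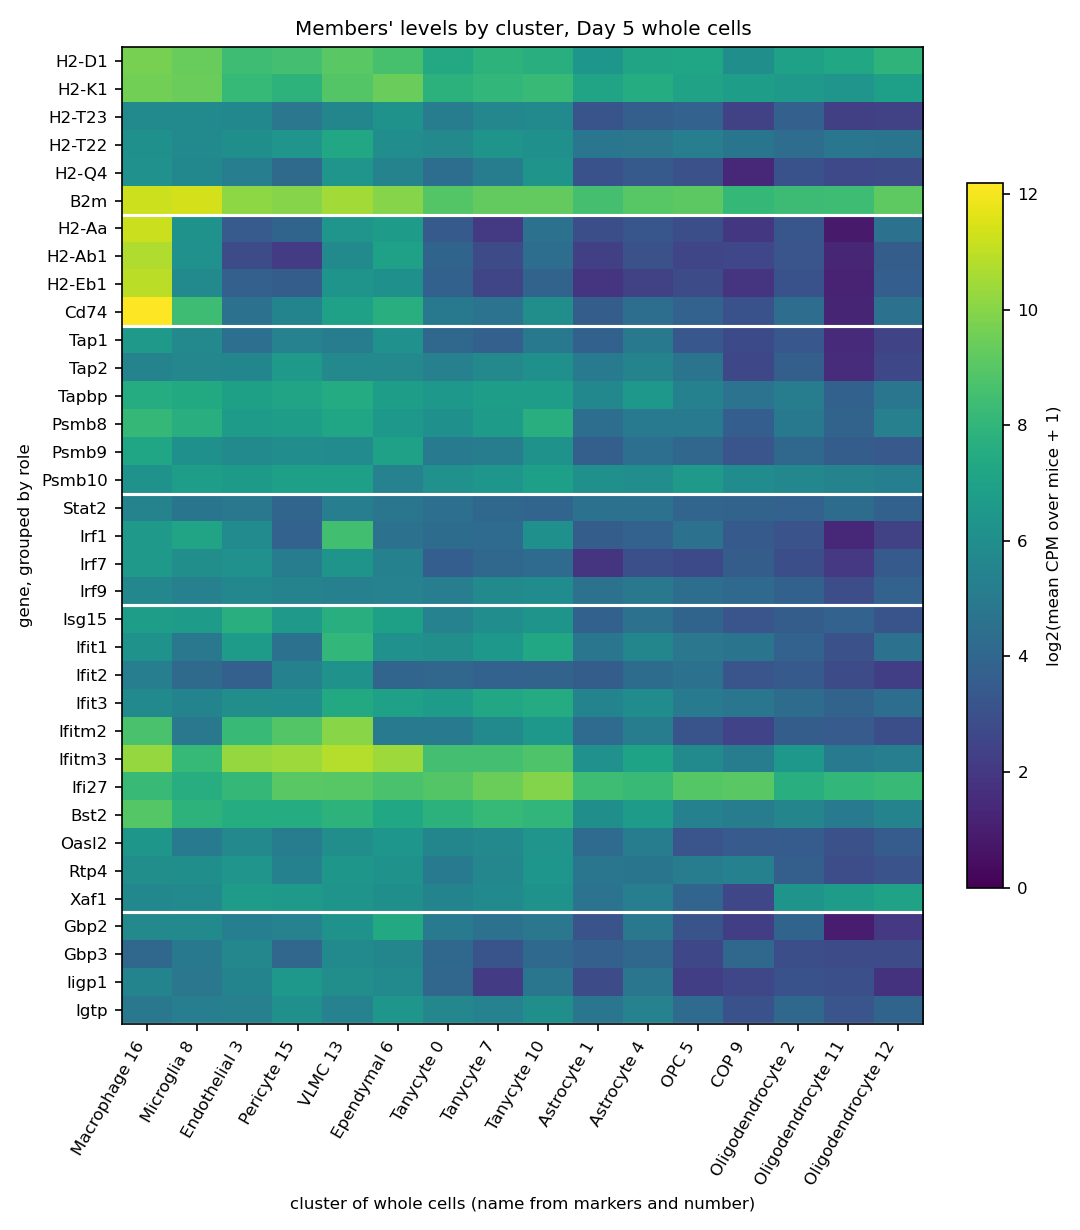
Mean level of each of the 35 genes (rows, grouped by role between white lines) in each of 16 clusters of Day 5 whole cells (columns), as log2 of CPM plus 1, over all mice of both groups. The class II rows are bright in macrophages, and Ifitm3 and Ifi27 are bright across vascular cells, ependymal cells and tanycytes.

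The whole-cell libraries carry a batch number, and each of the 6 batches holds 1 FGF1 and 1 vehicle mouse. The nuclear libraries carry one too, namely 3 to 5 on Day 1 and 1 and 2 on Day 5. Each of these also holds 1 FGF1 and 1 vehicle mouse. The authors reported a strong batch effect between nuclear samples and a much smaller one in whole cells. What a batch is was not given in the sources used here. In batch 3 of the whole cells, both mice stood apart in these genes. FGF1 replicate 6 was at least 2-fold above the median of the other FGF1 mice in 71.6% of 257 pairs of a gene and a cluster, and vehicle replicate 22 in 49.4% of 237 pairs. Over all genes, the same mice reached 2-fold in 4.78% and 4.17%. Only pairs where the median of the group's other mice was at least 20 CPM were counted. The other 10 mice ranged from 0% to 23.2% for the 35 genes, with FGF1 replicate 7 the highest.

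The 2 mice differed in which genes were furthest above the other mice of their own group. In vehicle replicate 22, class II genes had a median ratio of 6.11 and class I genes of 4.61 to the group's other mice, against 1.81 for the effectors and 1.92 for the GTPases. In FGF1 replicate 6, GTPases had a median ratio of 4.71, class I genes 3.16, effectors 2.89 and class II genes 2.19. Peptide loading and immunoproteasome genes had a median ratio of 1.74 in the vehicle mouse and 2.60 in the FGF1 mouse, and transcription factors 1.32 and 2.13. By these ratios, the vehicle mouse was furthest above its group in class II genes, on 5 pairs, and in class I genes. The ratios rest on each group's own level and on pairs at 20 CPM or more in its other mice. The sets of pairs thus differ (10 GTPase pairs in the vehicle mouse and 15 in the FGF1 mouse). A gene that was high in 1 mouse over a lower level in the others is left out. The FGF1 mouse was high in every role.

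**Figure D2:**
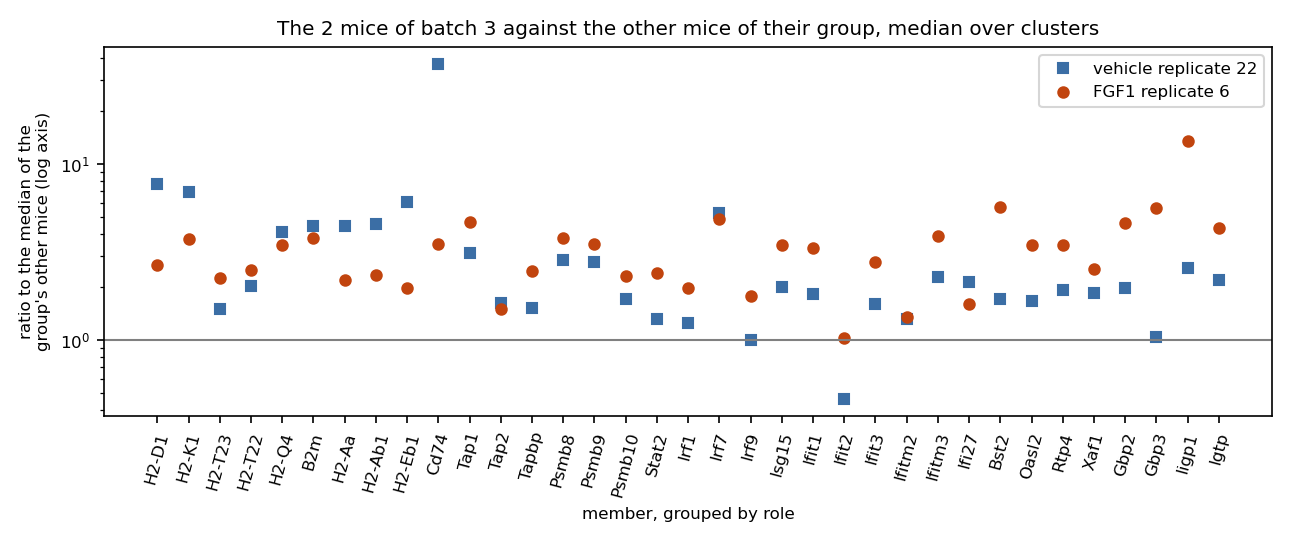
Level of each gene in vehicle replicate 22 (squares) and FGF1 replicate 6 (circles) as a ratio to the median of the other mice of its group, median over clusters, on a log axis. Clusters where the other mice's median was under 20 CPM are left out. Cd74, H2-D1 and H2-K1 are highest in the vehicle mouse, and Iigp1, Gbp3 and Bst2 in the FGF1 mouse.

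Markers of T cells moved with this batch. Of the T cell markers, 3 of 4 were in the counts, and Cd3e and Cd3d were at 0 in 10 of 12 libraries, the exceptions being FGF1 replicate 6 and vehicle replicate 22. The T cell list held 17 and 24 UMIs in those mice (5.25 and 3.12 CPM of the whole library) and 0 to 5 UMIs in the others. Microglia were 12.0% of the cells of FGF1 replicate 6, against 1.65% to 5.51% in the others. The B cell list (2 of 3 markers present) ranged from 0 to 2.87 CPM in FGF1 and 0 to 1.84 in vehicle mice, the dendritic cell list (2 of 4) from 0 to 0.674 and 0 to 1.69, and the neutrophil marker S100a8 was at 0 in 11 of 12 libraries. The highest values of the B cell list were in FGF1 replicate 36 and vehicle replicate 35 and both mice of batch 3 were at 0, the S100a8 UMIs were in FGF1 replicate 7, and the dendritic cell list was highest in FGF1 replicate 36 and vehicle replicate 22. The part of these cells in the levels was not tested.

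The first comparison asked which of these genes had changed in nuclei 1 day after FGF1. Ifitm3 rose in astrocytes and in VLMC, and no other gene of the 35 passed the test. Of 41 pairs of a gene and a cell type that could be tested (15 genes, 9 types), 2 were called higher and 0 lower at a false discovery rate (FDR) below 0.05 over all genes of the type in edgeR's quasi-likelihood test, and 10 had an unadjusted p under 0.05. The background over all genes in these types was 1.51% called, and it was 1.55% in Astro and 2.26% in VLMC. Of the 20 genes not tested in any type, all class II genes and GTPases among them, Igtp was not in the nuclear counts and the others had too few UMIs.

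In Astro nuclei, Ifitm3 was at 187, 104 and 207 CPM in the 3 FGF1 mice and at 5.09, 29.0 and 13.1 in the 3 vehicle mice. The lowest FGF1 mouse was above the highest vehicle mouse. The log2 fold change was 3.15 ± 0.57 (SE, FDR = 0.0217, edgeR), and the vehicle values rest on 1, 15 and 2 UMIs against 172, 39 and 31. The call held in 12 of 14 alternatives, and was lost without vehicle replicate 1 (2.83) or vehicle replicate 3 (3.05).

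In VLMC nuclei, FGF1 replicate 2 had fewer than 10 nuclei and was not in the fit. The other FGF1 mice had 1815 and 2750 CPM of Ifitm3, and the vehicle mice had 262, 898 and 338, with no overlap. The log2 fold change was 2.21 ± 0.65 (FDR = 0.0447, edgeR), and the call was lost in 10 of 13 alternatives, namely with batch as a block (1.98), with RLE scaling (2.31), with DESeq2 (2.17), with no filter on low counts (2.17), without cells holding immune RNA (2.18), with the replicate number as a block, also with RLE scaling (2.89 and 2.99), and without any 1 vehicle mouse (1.93 to 3.00). Of the other 3, 1 left out the mouse that was not in the fit, and the others left 1 FGF1 mouse (2.47 and 1.83), which is assumed to vary like the vehicle mice. Without barcodes over the mitochondrial or ribosomal limits, too few mice had 10 VLMC nuclei for a fit.

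In ependymal nuclei, Ifitm3 was at 566, 949 and 1914 CPM in FGF1 mice and 148, 155 and 773 in vehicle mice. Vehicle replicate 3, at the top of its group, lay above the lowest FGF1 mouse, and the log2 fold change of 1.63 missed the threshold (FDR = 0.154, edgeR). It passed with the replicate number as a block (1.82 ± 0.37, FDR = 0.00432), although these numbers did not pair the mice, without vehicle replicate 3 (2.89, FDR = 0.00308), and with no filter on low counts (1.59, FDR = 0.00105). With batch as a block it did not pass (1.70, FDR = 0.152, edgeR). Of all genes tested in Epend, 19.0% were called without a block. In tanycyte nuclei the difference of 1.07 also missed the threshold (FDR = 0.209).

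**Figure D3:**
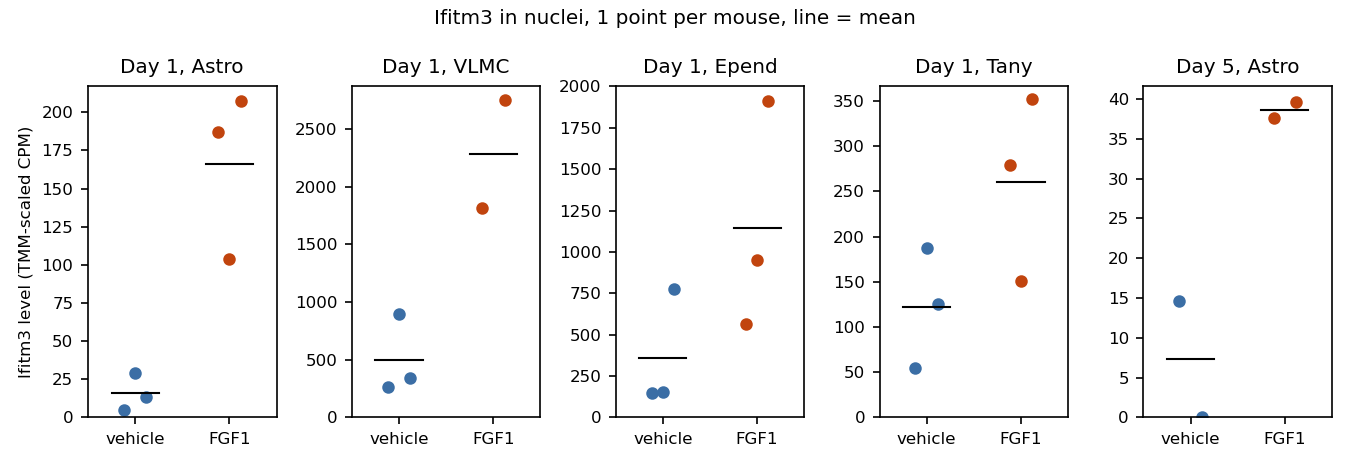
Level of Ifitm3 in CPM in nuclei, 1 point per mouse with the group mean as a line, in 4 types on Day 1 and in Astro on Day 5, each panel on its own axis from 0. FGF1 mice lie above all vehicle mice in Astro on both days and in Day 1 VLMC, and the groups overlap in Epend and Tany.

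Of the other effectors, only Ifi27, Ifitm2, Oasl2 and Rtp4 could be tested in any type on Day 1, and none passed. Ifi27 in Astro was at 210, 112 and 140 CPM in FGF1 mice and 76.3, 85.1 and 32.6 in vehicle mice, which did not overlap (log2 fold change 1.21, FDR = 0.381). In COP it was at 127, 73.0 and 130 against 22.1, 44.8 and 43.7 (1.48, FDR = 0.492). Ifitm2 in VLMC, at 1117 and 799 against 119, 694 and 338, did not overlap either (1.35, FDR = 0.318). Of the 41 pairs, 10 had groups that did not overlap, all with FGF1 higher, where 15.3% of all genes in these types did not overlap in either direction.

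By role, 16 of 18 effector pairs lay above 0 (median log2 fold change 1.04), as did 11 of 13 class I pairs (0.50), 4 of 5 of transcription factors (0.18) and 2 of 5 of peptide loading (-0.0038). In all, 33 of 41 were above 0 with a median of 0.64, against 51.2% of all genes tested and medians from -0.053 to 0.027 per type. The class I pair with an unadjusted p under 0.05 was the non-classical H2-T22 in neurons that the authors could not map to a known type, at 22.6, 20.4 and 19.0 CPM in FGF1 and 9.995, 14.3 and 11.9 in vehicle mice (0.77, FDR = 0.644).

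Genes of the same pathways outside the 35 were counted in the same fits. Among 23 receptor and signalling genes, 5 of 62 pairs were called higher and 0 lower on Day 1. Over all genes, 1.51% were called in the types where any of the 35 could be tested. The shares by type were 1.55% in Astro, 9.14% in Tany, 19.0% in Epend, 0.222% in Olig and 0.0892% in COP. Socs3, which dampens Jak and Stat signalling, rose in Astro from 0 to 1.94 CPM in vehicle mice to 114 to 187 CPM in FGF1 mice (FDR = 0.00285, edgeR) and in Tany from 0 to 35.9 CPM to 117 to 193 CPM (FDR = 0.00464). The vehicle mice had 1 UMI of it in Astro and 3 in Tany, so no fold is given. Stat3, a transcription factor downstream of many cytokines, rose in Olig (1.97, FDR = 0.0177) and COP (2.17, FDR = 0.0393), and Irf3 in Epend (1.65, FDR = 0.0287), and none of these 3 calls passed with batch as a block (FDR = 0.183, 0.278 and 0.0675). Olig and COP are the labels that also held neuron markers. Of the other antigen presentation genes, the chaperone Calr rose in Tany (1.77, FDR = 0.0205, edgeR; 0.0941 with batch as a block), the only call in 56 pairs. Of 22 pairs of other interferon-induced genes 0 were called (1 at p under 0.05), and of 28 pairs of the constitutive proteasome subunits 0 (2 at p under 0.05).

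On Day 5, nuclei of 2 and 2 mice were compared. Of 46 pairs (19 genes, 8 types), 0 were called by edgeR and 0 by DESeq2, 4 had an unadjusted p under 0.05, and the background was 0.314%. Ifitm3 in Astro stood at 37.6 and 39.6 CPM in FGF1 mice and at 14.6 and 0 in vehicle mice, on 15, 37, 9 and 0 UMIs, with a log2 fold change of 1.73 ± 0.58 (FDR = 0.179, edgeR). Groups did not overlap in 14 pairs, 7 of them higher in FGF1, beside 39.4% of all genes. Effectors lay above 0 in 13 of 17 pairs (median 0.32), transcription factors in 5 of 8 (0.27), class I genes in 5 of 12 (-0.13) and peptide loading genes in 3 of 9 (-0.25). In all, 26 of 46 (56.5%) were above 0 with a median of 0.19, beside 50.3% of all genes tested.

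Single mice weigh heavily in this comparison. Ifit1 in Astro, with 4 and 26 UMIs in FGF1 mice and 0 in both vehicle mice, was below the filter on low counts, and it was called without that filter (FDR = 0.0044) and without vehicle replicate 38. Psmb10 in Astro, at 30.1 and 50.3 CPM against 107 and 63.5, was called lower without that mouse (-1.28, FDR = 0.0111). Without vehicle replicate 38 the vehicle group is 1 mouse, which the fit assumes to vary like the FGF1 mice. Of the pathway lists outside the 35, 0 pairs were called on Day 5 in nuclei, with 3 of 51, 2 of 47, 2 of 26 and 2 of 26 at an unadjusted p under 0.05.

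Whether the effect of FGF1 differed between the days was tested as an interaction over all 10 nuclear libraries. Of 52 pairs 0 passed by edgeR and 0 by DESeq2, 3 had an unadjusted p under 0.05, and over all genes 0.00884% passed. A difference between Day 1 and Day 5 was thus not shown for Ifitm3 or any other of the 21 members tested.

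The largest data set, Day 5 whole cells, was compared without covariates first. Ifi27 rose in tanycytes of cluster 7 and was the only one of 203 pairs (35 genes, 16 clusters) that passed, while 25 had an unadjusted p under 0.05. The background was 1.75% called over all genes and 1.94% in cluster 7. Ifi27 ranged from 674 to 1098 CPM in 5 FGF1 mice (median 784) and from 444 to 689 in 6 vehicle mice (median 530), and FGF1 replicate 6 had too few cells there. The groups overlapped in that FGF1 replicate 36 (674) lay below vehicle replicate 22 (689), and the FGF1 mouse was the higher one in 5 of 5 batches. The log2 fold change was 0.60 ± 0.14 (FDR = 0.0175, edgeR), with 4641 and 724 UMIs behind it. The call was lost without FGF1 replicate 7 (0.49) or vehicle replicate 25 (0.54). With clusters of 1 name merged, Ifi27 was at 0.84 ± 0.25 in tanycytes and was not called (FDR = 0.0735), and the 1 call of 162 pairs was Ifit2 in astrocytes (0.81 ± 0.22, FDR = 0.0116, edgeR). In that fit 4.19% of all genes were called, with 12.6% in astrocytes and 5.08% in tanycytes. Cluster 7 held 2728 FGF1 and 590 vehicle cells. Of the 20 genes tested in it, 8 lay above 0 (median log2 fold change -0.15), and 9 did with batch as a block (-0.13).

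Each batch was also compared within itself. In the 12 clusters where both mice of all 6 batches could be compared, 27 of 160 pairs (16.9%) were higher in the FGF1 mouse of every batch, and 1 was lower in every batch. Over all genes, 3.92% were higher and 3.67% lower in every batch. The 27 comprise 15 genes. Ifi27 was higher in every batch in 6 clusters, B2m and Ifitm3 in 4 each and Bst2 in 2. The pairs come from the same mice and the same genes recur across clusters, so they are not independent. The genes were also chosen with earlier results of these data known. The share of pairs is therefore a description, and its excess over all genes was not tested.

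With batch as a block in the edgeR fit, 20 pairs were called higher and 1 lower, or 10.3% of 203, beside a background of 2.27%. Without both mice of batch 3, an alternative chosen after the data had been seen, 10 were called higher and 1 lower of 192, or 5.73%, beside 1.6%. With both changes 15 were called higher and 1 lower of 192, or 8.33%, beside 1.96%. These pairs share mice and genes as well, so the distance of each share from its background was not tested. Of the 21 calls with the block, 14 were called again with both changes, 5 were not and 2 were not tested. By role, the blocked calls were 12 of 86 effector pairs, 2 of 8 GTPase pairs, 2 of 15 transcription factor pairs, 1 of 37 loading pairs, 3 higher and 1 lower of 52 class I pairs, and 0 of 5 class II pairs (0 also at an unadjusted p under 0.05).

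By role, most effector and GTPase pairs lay above 0. The effector pairs did so in 70 of 86 cases without a block (median log2 fold change 0.43) and 76 of 86 with it (0.40). All 8 GTPase pairs that passed the filter on low counts lay above 0 in both (0.77 and 0.90). Of 16 clusters, Gbp2 and Igtp were tested in 3 each and Gbp3 and Iigp1 in 1 each. The filter can be passed through the mice of 1 group alone, and the direction in the other clusters was not tested. The class I pairs had no settled direction, with 20 of 52 above 0 and a median of -0.20 without a block, 31 of 52 and 0.090 with it, and 42 of 50 and 0.42 without batch 3. Over all genes 49.8% were above 0 without a block, and no cluster's median was further from 0 than 0.026.

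**Figure D4:**
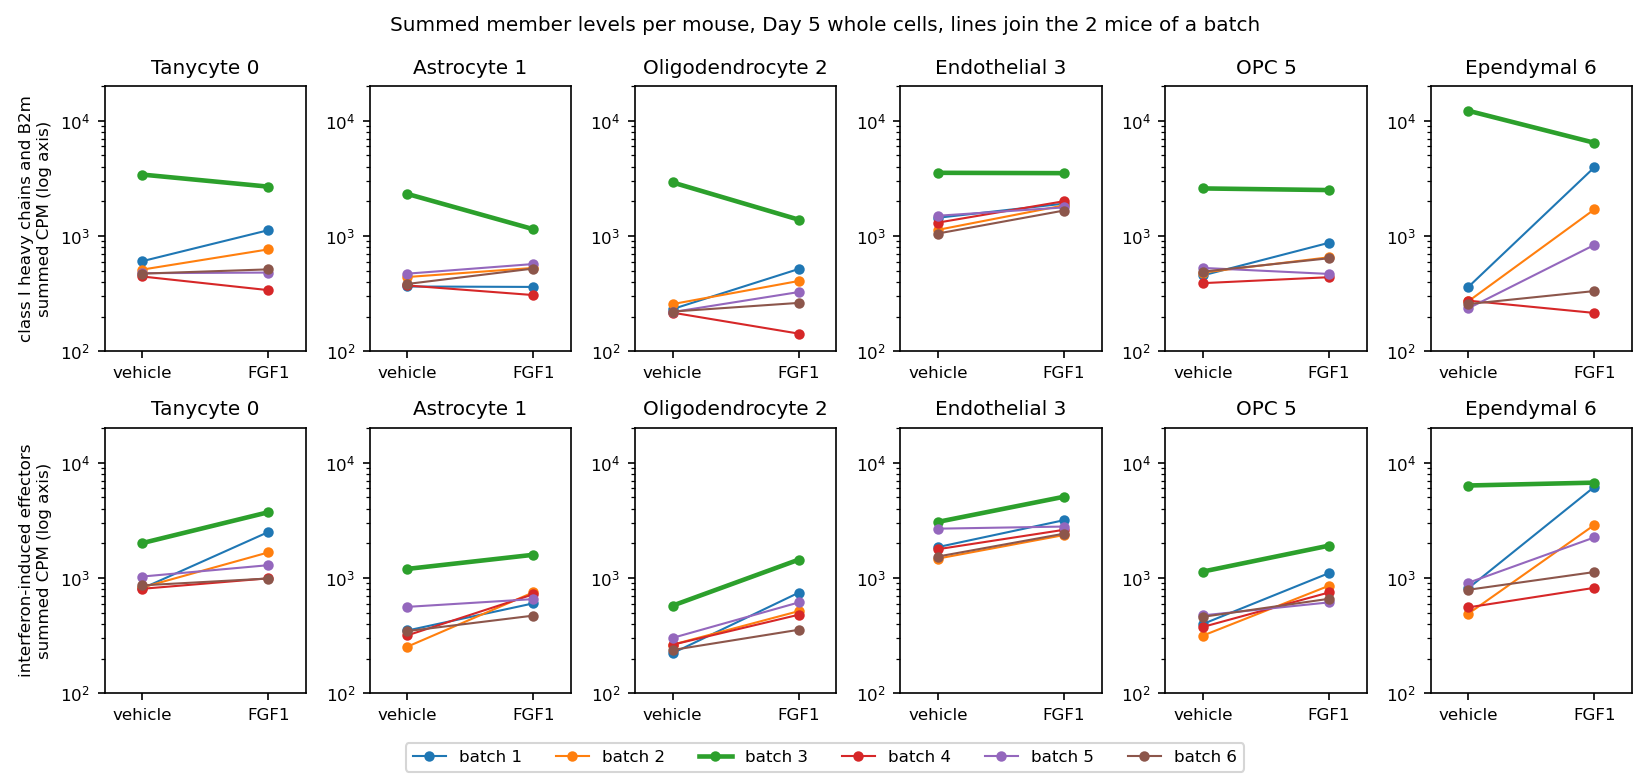
Summed level of the 6 class I genes (top) and the 11 interferon-induced effectors (bottom) per mouse in 6 clusters of Day 5 whole cells, in CPM on a log axis, with a line joining the 2 mice of each batch and batch 3 drawn thick. Every line rises toward FGF1 in the lower row, whereas in the upper row lines go both ways and batch 3 lies above the others.

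Summed over the 11 effectors, the FGF1 mouse was the higher one in 6 of 6 batches in tanycytes (cluster 0), astrocytes (1), oligodendrocytes (2), endothelial cells (3), OPC (5) and ependymal cells (6). These are 6 of the 12 clusters with both mice of all 6 batches, and the sums of the others are not given here. In oligodendrocytes the sum ran from 356 to 1443 CPM in FGF1 mice (median 565) and from 224 to 577 in vehicle mice (median 265). In ependymal cells it ran from 823 to 6721 (median 2565) and from 491 to 6346 (median 804), with vehicle replicate 22 the highest vehicle mouse in both. The highest vehicle mouse reached into the FGF1 range in each of the 6 clusters.

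In oligodendrocytes of cluster 2, Ifitm3 ran from 35.3 to 334 CPM in FGF1 mice (median 124) and from 18.2 to 86.9 in vehicle mice (median 26.5). Its log2 fold change was 1.84 ± 0.62 (FDR = 0.245) without a block and 1.90 ± 0.29 (FDR = 0.00699) with it in edgeR. Bst2, or tetherin, which holds budding virus at the cell surface, ran from 23.9 to 238 (median 43.6) and from 7.27 to 48.9 (median 14.9), and changed by 1.80 ± 0.25 with the block (FDR = 8.1e-05, edgeR). Both genes were higher in the FGF1 mouse of 6 of 6 batches. The oligodendrocytes of the groups lay in different clusters, with 1799 FGF1 and 5610 vehicle cells in cluster 2, 1212 and 166 in cluster 11 and 223 and 952 in cluster 12. Over the merged clusters and without a block, Ifitm3 was at 1.32 (FDR = 0.307), Bst2 at 1.29 (FDR = 0.448) and Ifi27 at 0.73 (FDR = 0.165, edgeR).

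Endothelial cells of cluster 3 gave the most blocked calls by number, namely B2m, Psmb9, Irf7, Ifitm3 and Bst2, all higher in 6 of 6 batches. These are 5 of 29 genes tested, beside 1.77% of all genes called in this cluster with the block. The called share was larger in astrocytes of cluster 1 (4 of 18), oligodendrocytes of cluster 2 (3 of 11) and OPC (2 of 6). Ifitm3 ran from 1126 to 2651 CPM in FGF1 (median 1295) and from 641 to 1382 in vehicle mice (median 809), and changed by 0.71 ± 0.25 (FDR = 0.259) without and 0.70 ± 0.12 (FDR = 0.00179) with the block in edgeR. Irf7, which amplifies the interferon response, ran from 57.8 to 147 (median 77.5) and from 26.8 to 109 (median 44.0), with a blocked change of 0.75 ± 0.19 (FDR = 0.0322). In both, FGF1 replicate 6 and vehicle replicate 22 were the highest mice of their groups. Without batch 3 and with the block, Irf7 (0.85, FDR = 0.0623) and Psmb9 (0.75, FDR = 0.115) were not called. Of 29 genes tested in this cluster, 27 lay above 0 without a block and 28 with it.

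Ifi27 was the gene called in the most clusters with the block, namely 0, 1, 2, 5 and 7. In tanycytes of cluster 0 it ran from 394 to 1059 CPM in FGF1 mice (median 576) and from 215 to 551 in vehicle mice (median 284). In OPC it ran from 463 to 852 (median 573) and from 213 to 772 (median 291), where the vehicle maximum is replicate 22 and the next vehicle mouse is at 370. The blocked log2 fold changes were 1.00 ± 0.13 in cluster 0 (FDR = 0.00016) and 0.83 ± 0.15 in OPC (FDR = 0.00103, edgeR), against an FDR of 0.0698 and 0.290 without a block. The values in tanycytes of cluster 10, its highest cluster, were 990 to 1232 against 642 to 1152, at 0.32 ± 0.14 without a block (FDR = 0.307).

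**Figure D5:**
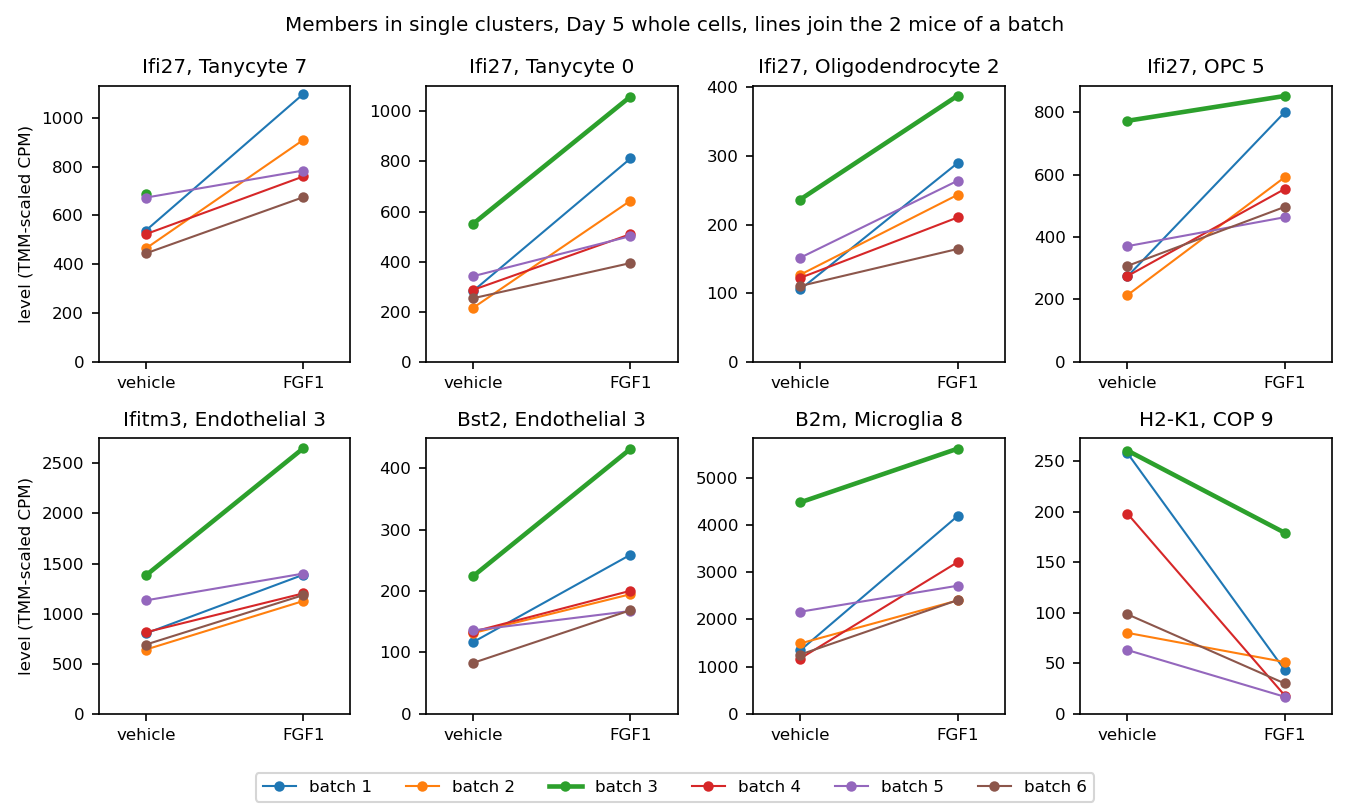
Level in CPM of 5 genes (Ifi27, Ifitm3, Bst2, B2m and H2-K1) in single clusters of Day 5 whole cells, 1 point per mouse, with a line joining the 2 mice of a batch and batch 3 drawn thick. Lines rise toward FGF1 in 7 panels and fall in all 6 batches for H2-K1 in COP. A vehicle mouse without a partner in cluster 7 has no line.

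In astrocytes of cluster 1, the blocked fit called Ifitm3 (1.15 ± 0.23, FDR = 0.000573), Bst2 (0.91, FDR = 0.0282), Igtp (6.97 to 114 against 4.21 to 41.1 CPM, FDR = 0.0491) and Ifi27 (0.59, FDR = 0.0235). Ifitm3 ran from 20.1 to 322 CPM in FGF1 (median 60.6) and from 12.6 to 117 in vehicle mice (median 27.5), and was higher in 5 of 6 batches. Without a block none of the 18 genes tested here was called or had an unadjusted p under 0.05, and 8 lay above 0, with Ifitm3 at 0.85 ± 0.78 (FDR = 0.791), Bst2 at 0.59 ± 0.89 (FDR = 0.899) and Ifi27 at 0.51 ± 0.41 (FDR = 0.761, edgeR). With single mice left out of that fit, Ifitm3 ranged from 0.24 to 1.56 and Bst2 from 0.048 to 1.54, lowest without FGF1 replicate 6 and highest without vehicle replicate 22. Over the merged astrocyte clusters, Ifitm3 was at 1.32 (FDR = 0.247) and Ifi27 at 0.39 (FDR = 0.524). Without batch 3 and with the block, Ifi27 was still called here (0.67, FDR = 0.0273), Ifitm3 (1.01, FDR = 0.0629) and Bst2 (0.89, FDR = 0.186) were not, and Igtp was below the filter on low counts. FGF1 cells were few in this cluster, with 1531 against 7940 vehicle cells, and most FGF1 astrocytes were in cluster 4, where 6 of 16 genes lay above 0 without and 13 with the block and 0 were called in either (1 at an unadjusted p under 0.05).

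With the block, B2m was called in microglia and Irf9 and Xaf1 in ependymal cells. B2m in microglia ran from 2402 to 5617 CPM in FGF1 mice (median 2964) and from 1171 to 4479 in vehicle mice (median 1417). The FGF1 mouse was higher in 6 of 6 batches, at 0.78 ± 0.35 (FDR = 0.383) without and 0.89 ± 0.20 (FDR = 0.0371) with the block in edgeR. Outside vehicle replicate 22, every vehicle mouse was at 2162 or less, below all FGF1 mice. With no filter on low counts and no block, 8 of the 15 calls in whole cells (560 pairs, beside 0.985% of all genes) were in microglia (35 pairs, beside 0.645%), all higher, namely B2m and 7 genes that the filter removes there (Gbp3, H2-T22, Ifit3, Ifitm2, Oasl2, Psmb9 and Xaf1).

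In ependymal cells the mice of batch 3 stood far above the rest. Cd74 was at 1467 CPM in vehicle replicate 22, at 954 in FGF1 replicate 6 and at 9.08 or less in the other 10 mice. The class I sum was 12197 CPM in vehicle replicate 22 and had a median of 274 in the vehicle mice, and it ran from 216 to 6442 in FGF1 mice (median 1269), of which FGF1 replicate 6 had only 19 ependymal cells. Irf9, the DNA-binding partner of Stat2, ran from 11.9 to 132 CPM in FGF1 (median 49.7) and from 4.26 to 87.1 in vehicle mice (median 17.9), and changed by 1.57 ± 0.29 with the block (FDR = 0.000437). Xaf1, a pro-apoptotic zinc finger protein, changed by 1.47 ± 0.26 (FDR = 0.000279, edgeR). Neither passed without a block (FDR = 0.687 and 0.6247). Without batch 3 and with the block, Xaf1 was called again (1.48, FDR = 0.00788) and Irf9 was below the filter on low counts and not tested. Of 17 genes tested in this cluster, 11 lay above 0 without a block (median log2 fold change 0.13) and 17 with it (1.32). Without batch 3 and with no block, 16 of 16 did (1.97) and 0 were called. Gbp2, which has its highest level here, ran from 28.0 to 676 and from 27.7 to 528, at 0.17 ± 1.02 (FDR = 0.987), and its sign changed without FGF1 replicate 7 (-0.96), vehicle replicate 20 (-0.047), 25 (-0.025) or 29 (-0.0041), while it was 1.83 without vehicle replicate 22.

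No class II gene passed in macrophages. Cd74 was at 7957, 7895, 3369, 5111 and 3540 CPM in 5 FGF1 mice and 1387, 9487, 1014 and 2047 in 4 vehicle mice. Among the vehicle mice, replicate 22 lay above every FGF1 mouse, and the others lay below all of them. The log2 fold change was 0.65 ± 0.68 (FDR = 0.984, edgeR), and for H2-Aa it was 1.01 ± 0.85 (FDR = 0.984). Summed, class II genes had a median of 12359 CPM in FGF1 and 4053 in vehicle mice and were higher in 3 of the 3 batches with both mice, on 175 and 140 macrophages. Over all clusters and without batch 3, the 5 class II pairs tested, not all of them in macrophages, lay above 0 (median 1.48). Of them, 4 had an unadjusted p under 0.05 and 0 passed. With the block as well, the 5 lay above 0 (median 1.02), 1 had an unadjusted p under 0.05 and 0 passed.

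H2-K1 in COP was the 1 gene lower after FGF1 in every batch. It was at 16.8 to 179 CPM in FGF1 mice (median 36.6) and 63.1 to 261 in vehicle mice (median 148), so the groups overlapped. The change was -1.69 ± 0.79 without a block (FDR = 0.411) and -1.56 ± 0.35 with it (FDR = 0.00729, edgeR). The vehicle level rests on 52 UMIs in 164 cells, against 149 UMIs in 1583 FGF1 cells.

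The remaining blocked calls were Gbp2 in tanycytes of cluster 0 (1.11 ± 0.24, FDR = 0.00968, 17.04 to 95.8 against 6.94 to 66.5 CPM) and B2m in OPC (0.42 ± 0.13, FDR = 0.0476, 285 to 1640 against 244 to 1363). Both were higher in 6 of 6 batches, and B2m in OPC was at -0.19 without FGF1 replicate 6 in the fit without a block. Without batch 3 and with the block, B2m in OPC was not called (0.46, FDR = 0.0897). Groups overlapped in all 203 pairs of this data set, whereas 1.6% of all genes did not overlap.

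Outside the 35 genes, Cxcl10, a chemokine induced by interferon that attracts T cells, rose in tanycytes of cluster 0. It ran from 5.92 to 47.9 CPM in FGF1 (median 13.6) and from 0 to 13.3 in vehicle mice (median 1.46), at 2.28 ± 0.52 (FDR = 0.0126, edgeR), and was 1 of 65 pairs of other interferon-induced genes called. Canx, a chaperone of class I heavy chains, fell in oligodendrocytes of cluster 11, from 384 to 638 in vehicle to 320 to 426 in FGF1 mice (-0.65 ± 0.16, FDR = 0.0116), 1 of 84 pairs of other antigen presentation genes. Over all genes 1.75% were called, with 5.27% in cluster 0 and 6.63% in cluster 11, so neither count stands above the background. Of 102 receptor and signalling pairs 0 were called (7 at p under 0.05), and of 41 pairs of constitutive proteasome subunits 0 (3 at p under 0.05).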

How the data were processed

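The authors aligned droplet libraries to GRCm38 with Cell Ranger 1.2 (introns included for nuclei) and deposited counts of UMIs per gene and barcode, with metadata that give sample, batch, cell type or cluster, and the percent of mitochondrial and ribosomal UMIs as the authors computed them. The authors removed doublets and neurons from the whole cells and ran no doublet caller on nuclei, and none was run here. Deposited normalized values were not used. Barcode sequences occur in more than 1 library for 638 of 24965 nuclei and 3616 of 54890 cells, and all barcodes were kept.

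Counts were summed per mouse and type (10 or more cells per mouse, 2 or more mice per group) and tested with edgeR 4.0.16 (TMM, filterByExpr, robust glmQLFit, glmQLFTest, FDR below 0.05) as FGF1 over vehicle without covariates. Standard errors are those implied by the F statistic. Alternatives were RLE scaling, no filter, DESeq2 1.42.0 (R 4.3.3), each mouse left out, barcodes over the stated limits (5% for nuclei, 20% for cells) or with 2 or more immune UMIs left out, merged clusters, and the batch or replicate number as a block. Clusters were named where at least 3 markers were in 10% of cells and 2-fold above other cells.

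On simulated counts of 5660 genes of Day 1 Astro, 0%, 40% and 94.7% of genes changed 2-, 4- and 16-fold were recovered. For Day 5 nuclei (Astro, 7977 genes) the shares were 15%, 88.1% and 100%, for the interaction (8453 genes) 0%, 0% and 64.5%, and for Day 5 cells (cluster 0, 9279 genes) 92.1%, 98.4% and 100%.

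The 35 genes, the lists and the naming rule were chosen with earlier results of these data known. Pairs of a gene and a type share mice and genes in every comparison, so counts of pairs beside all genes are descriptions and no tests. Named were all called genes (up to 12 per comparison), the 3 highest of each role, up to 10 genes of the other lists, and, added after the data were seen, genes called with a batch block. Sequences and positions are from RefSeq (GRCm38.p6) and GENCODE vM21.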

Additional observations from a re-analysis of the deposited data

Results flagged for a closer look

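In Day 5 cells, 76 groups of 4 to 6 mice were examined for the named genes. By Dixon's test at 95%, 31 had a mouse set far above the others of its group. That mouse was vehicle replicate 22 in 20, FGF1 replicate 6 in 10 and vehicle replicate 35 in 1. The test flags about 1 of 20 groups by chance, but that rate is no yardstick here. The 76 groups share mice, and many of the genes were named because they were called with batch as a block or without batch 3. FGF1 and vehicle replicates 6 and 22 form batch 3.

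Vehicle replicate 22 stood apart for B2m in microglia (4479 CPM), endothelial cells (1881) and OPC (1363). In macrophages it did so for H2-K1 (1775), Cd74 (9487) and H2-Eb1 (4268), and in ependymal cells for Gbp2 (528), Igtp (387), Irf9 (87.1) and Xaf1 (103). In astrocytes of cluster 1 it was set apart for Ifitm3 (117), Bst2 (136) and Igtp (41.1), in oligodendrocytes of cluster 2 for Ifitm3 (86.9), Bst2 (48.9) and Ifi27 (237), in endothelial cells for Bst2 (224) and Psmb9 (71.3), in OPC for Ifi27 (772) and in tanycytes of cluster 0 for Gbp2 (66.5).

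FGF1 replicate 6 stood apart in endothelial cells for B2m (2367), Ifitm3 (2651), Irf7 (147) and Bst2 (432). It also did so for B2m in OPC (1640), Tapbp in macrophages (532), Iigp1 in pericytes (662), Ifitm3 in astrocytes of cluster 1 (322), Bst2 in oligodendrocytes of cluster 2 (238) and H2-K1 in COP (179). Vehicle replicate 35 did so for Iigp1 in pericytes (97.0). Whether the effect of FGF1 differs between Day 1 and Day 5 could be tested in nuclei only. There 21 of the 35 genes were tested and 0 passed, and the other genes, Igtp among them, had no such test.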

How the results depend on the processing

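The number of calls depended on the setting. In Day 5 cells, 1 call became 21 with batch as a block, 11 without batch 3, 16 with both changes, 15 with no filter and 4 with DESeq2, and ranged from 0 to 9 with single mice left out. It was 9 without vehicle replicate 22, 3 without FGF1 replicate 36 and 0 without FGF1 replicate 7 or vehicle replicate 25. In Day 1 nuclei, 2 calls became 1 with RLE scaling, DESeq2, batch as a block, without barcodes over the limits and without cells holding immune RNA, and ranged from 0 (without vehicle replicate 1) to 2 with single mice left out. In Day 5 nuclei, 0 calls became 1 with no filter, and ranged from 0 to 2 with single mice left out, 2 being without vehicle replicate 38. The interaction stayed at 0 in every setting. The cause of these changes was not tested.

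The replicate number as a block left 2 calls on Day 1, with Ifitm3 in Epend in place of VLMC, also with RLE scaling. Same-numbered mice did not deviate together (every pair above 0.1 in 0 of 12 types, r from -0.464 to 0.467), so the numbers were not taken as pairs. No other comparison shared numbers.

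Of 640 values of named genes under alternatives, 557 kept direction and side of the threshold, 54 newly passed, 14 no longer passed and 15 changed sign, none of them past the threshold. H2-D1 in macrophages (0.068) changed sign with no filter (-0.0063), without barcodes over the limits (-0.038), with batch as a block (-0.44) and without batch 3 with the block (-0.18). With single mice left out, the values ranged from -0.25 to 0.60 for H2-D1 and -0.12 to 1.31 for H2-K1 in macrophages, -0.77 to 0.65 for Irf1 in VLMC, -0.96 to 1.83 for Gbp2 in ependymal cells and -0.19 to 1.07 for B2m in OPC. Low UMI numbers limit class II genes and GTPases, which were not testable in nuclei, where Igtp was not in the counts.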
